A study of Mus musculus with 12 samples.

Results

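Transcripts of 9 neurotrophic factors and receptors were followed in the injured retina: the secreted factors Bdnf, Ntf3, Gdnf, Fgf2 and Igf1, the receptors Ntrk2, Ngfr and Igf1r, and the binding protein Igfbp5. They were picked by symbol, as factors and receptors that sustain retinal ganglion cells (RGCs), and make up 9 of the 25655 genes in the deposited tables. All 9 had counts and averaged at least 10 counts per library.

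Neurotrophic factors are secreted proteins that keep neurons alive and promote the growth of their axons. BDNF, the ligand of the receptor kinase TrkB (encoded by Ntrk2), and NT-3 (Ntf3) are neurotrophins, and the neurotrophin receptor p75 (Ngfr) binds all mature neurotrophins and their precursors. GDNF acts through the RET kinase and GFRA co-receptors, FGF2 through FGF receptors, and IGF1 through the kinase encoded by Igf1r, with IGF-binding proteins such as IGFBP5 controlling how much IGF reaches its receptor. In the retina, Müller glia are a known source of several of these factors, and both BDNF and IGF1 are known for their support of injured RGCs.

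The samples were whole retinas of C57BL/6J mice 8 to 10 weeks old, taken 2 days after optic nerve crush (ONC), in which forceps close on the nerve behind the eye. Every eye had ONC and 1 intravitreal injection after it: PBS (the control), fluvastatin (a statin, which blocks the first committed step of cholesterol synthesis), matrix-bound nanovesicles (MBV, prepared from porcine urinary bladder), or both agents. Each of the 4 groups held 3 samples, and count columns that name their library were at hand for 9 of the 12, 3 each of PBS, fluvastatin and MBV. The combined treatment was not analysed here. No retina without ONC was part of these groups, so each value is a level after injury, and the labels do not say whether a library came from 1 animal or from a pool, so that p-values measure the spread between these samples. Because whole retinas were sequenced, fewer cells of a type and less RNA per cell cannot be told apart.

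The 9 libraries held 21349516 to 30992040 counts on genes. The library numbers in the labels ran from 1 to 3 in PBS and again in fluvastatin, and from 4 to 6 in MBV. They were read as 2 sets, one that holds PBS and another that holds fluvastatin and MBV. The numbers alone do not state which set MBV belongs to. On this reading each treatment was compared with PBS across the sets, and treatment and set cannot be told apart in those comparisons. MBV and fluvastatin then lay within one set. Both treatments were compared with the same 3 PBS libraries. The rod list of 6 markers summed to 41228 to 44583 CPM (a gene's counts relative to the library total, scaled by edgeR's TMM) in PBS, 36463 to 39308 in fluvastatin and 28249 to 40074 in MBV, and none of its markers was at 0. The summed level of 8 lens genes was 0.912 to 5.78 CPM in PBS, 2.46 to 22.4 in fluvastatin and 63.4 to 177 in MBV, and all 8 were higher in MBV than in PBS. Of the 9 pigment epithelium and melanocyte markers, 4 were lower under each treatment and 2 higher with fluvastatin and 1 with MBV. Of 5 red blood cell genes 3 were higher under each treatment, and their summed level was 6.50 to 8.25 CPM in PBS, 13.3 to 17.0 in fluvastatin and 14.0 to 17.2 in MBV. Snhg11, the 1 long noncoding RNA of the RNA quality list that was in the tables, was 640 to 645 CPM in PBS, 760 to 1061 in fluvastatin and 855 to 988 in MBV, and was higher under each treatment, as were Ngfr and Igf1r. Over all genes, 9.36% were called higher and 10.2% lower with fluvastatin, and 12% and 14.1% with MBV, by the test given below. The part of these listed genes in the results below was not tested.

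Compared with PBS, fluvastatin was accompanied by higher Ngfr (1.27-fold) and Igf1r (1.23-fold) and by lower Igf1 (1.29-fold), and the other 6 genes did not pass the test. MBV gave the same calls for these 3 genes, at 1.38-fold, 1.11-fold and 1.32-fold, and in addition Igfbp5 was 1.33-fold lower. A gene was called when its FDR, the Benjamini-Hochberg adjusted p of edgeR's quasi-likelihood test over all genes with a count, was under 0.05. With fluvastatin 3 of 9 genes were called, where 19.6% of all 18818 genes tested were called, 9.36% of them higher and 10.2% lower. With MBV 4 of 9 were called, where the share among 18897 genes was 26.1%, 12% higher and 14.1% lower. Between MBV and fluvastatin 0 of 9 were called by edgeR, where 0.0588% of genes were, 0.0267% higher and 0.032% lower. In that comparison 3 of 9 had an unadjusted p under 0.05, where 10.7% of genes did, and DESeq2 called 1 of 9, where it called 0.692% of genes. The 3 libraries of each group did not overlap for 4 genes with fluvastatin, 5 with MBV and 3 between the treatments, where 36.6%, 41.3% and 16.4% of all genes did not overlap. The median size of the log2 fold change of the 9 genes was 0.30 with fluvastatin, 0.42 with MBV and 0.14 between them, beside 0.20, 0.23 and 0.12 for all genes.

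**Figure D1:**
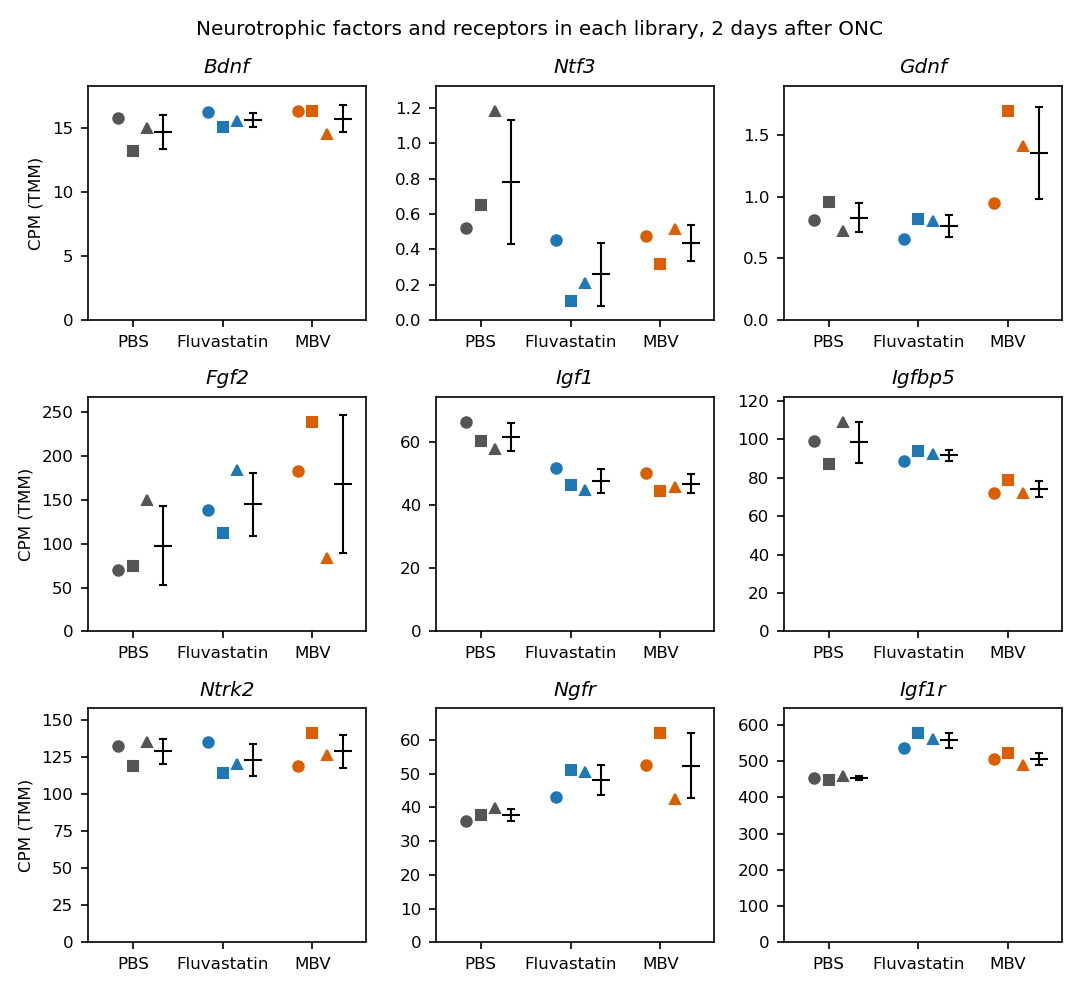
TMM-scaled CPM (y axis, from 0, a scale of its own for each gene) of the 9 genes in each library, by group (x axis), with circle, square and triangle for replicates 1, 2 and 3 and a bar for the mean ± SD of 3 libraries. Igf1 lay lower and Ngfr and Igf1r lay higher in every treated library than in every PBS library, Igfbp5 was lowest in MBV, and Fgf2 ranged from 70.0 to 239 CPM with wide spread in each group.

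Levels between genes were compared per kilobase of the canonical transcript of GENCODE M39. On this scale of CPM per kb, the mean level over the 9 libraries was highest for Igf1r at 40.5, followed by Fgf2 at 21.8. Igfbp5 at 14.7, Ntrk2 at 14.0 and Ngfr at 13.4 lay close together. Igf1 came next at 7.36 and Bdnf at 3.74, while Ntf3 at 0.360 and Gdnf at 0.267 were scarce. The receptors Ntrk2 and Igf1r were thus present at higher levels of transcript than their ligands Bdnf and Igf1 in whole retina.

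Bdnf (ENSMUSG00000048482, chr2:109505045-109557352 on GRCm39, plus strand) encodes the TrkB ligand. In CPM it measured 15.8, 13.2 and 15.0 in PBS, 16.2, 15.1 and 15.5 in fluvastatin, and 16.3, 16.3 and 14.5 in MBV. All 3 groups overlapped, and the highest of the 9 libraries was 1.23 times the lowest. The log2 fold change was 0.09 with fluvastatin (95% confidence interval -0.10 to 0.27, edgeR FDR = 0.519) and 0.09 with MBV (-0.11 to 0.28, edgeR FDR = 0.5). MBV and fluvastatin differed by 0.01 (-0.17 to 0.19, edgeR FDR = 0.984). These intervals leave room for differences of up to 0.28 on the log2 scale in either treatment, so a small change of Bdnf was not detectable at this depth and spread.

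Ntf3 (ENSMUSG00000049107, chr6:126078375-126143873, minus strand), the gene of NT-3, was near the floor of detection. PBS libraries held 16, 19 and 31 counts, which is 0.520, 0.648 and 1.18 CPM. Fluvastatin libraries held 11, 3 and 5 counts (0.453, 0.112 and 0.212 CPM), and MBV libraries 13, 7 and 12 (0.475, 0.320 and 0.513 CPM). Every treated library was below every PBS library. The log2 fold change was -1.58 with fluvastatin (SE 0.517, interval -2.73 to -0.43) and missed the threshold at an edgeR FDR of 0.0565. Leaving out fluvastatin replicate 1, the highest of its group, brought the log2 fold change to -2.24 with an edgeR FDR of 0.0129. A joint fit of all 9 libraries gave an edgeR FDR of 0.0461. Of the 6 fits without 1 library, only that 1 called Ntf3, and over them the edgeR FDR reached 0.188 and the log2 fold change -1.17. Of 6 other settings, the joint fit was the 1 that called it, and the FDR reached 0.0771. With MBV the log2 fold change was -0.82 (-1.74 to 0.09, edgeR FDR = 0.173), and MBV and fluvastatin overlapped.

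Gdnf (ENSMUSG00000022144, chr15:7840327-7867056, plus strand), which encodes the ligand of the GFRA and RET complex, was equally scarce. Its counts were 25, 28 and 19 in PBS, 16, 22 and 19 in fluvastatin and 26, 37 and 33 in MBV. In CPM this was 0.812, 0.955 and 0.722, then 0.659, 0.822 and 0.806, then 0.950, 1.69 and 1.41. The MBV libraries were all above the fluvastatin libraries, whereas MBV replicate 1 lay within the range of PBS. The log2 difference between MBV and fluvastatin was 0.81 (interval 0.13 to 1.49, unadjusted p = 0.0237, edgeR FDR = 0.412). That between MBV and PBS was 0.68 (0.02 to 1.33, edgeR FDR = 0.120), and that between fluvastatin and PBS was -0.12 (-0.74 to 0.49, edgeR FDR = 0.790).

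Fgf2 (ENSMUSG00000037225, chr3:37402495-37464257, plus strand) encodes basic fibroblast growth factor, a factor known to be induced in injured retina, and varied widely between the libraries of each group. The PBS libraries measured 70.0, 74.3 and 150 CPM, the fluvastatin libraries 139, 112 and 184, and the MBV libraries 183, 239 and 83.3. PBS replicate 3 was as high as treated libraries and MBV replicate 3 was close to PBS replicates 1 and 2, so the groups overlapped. The SD within groups was 0.612 on the log2 scale, a value above that of 98.9% of the 15056 genes that averaged at least 10 counts. Ntf3 was at 93.3% by this measure, Gdnf at 81.5%, Ngfr at 77.3%, and Igf1r at 8.81%, with an SD of 0.0435. Means were 98.2 ± 45.2 CPM in PBS, 145 ± 36.3 in fluvastatin and 168 ± 78.8 in MBV (SD, n = 3 each).

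The log2 fold change of Fgf2 was 0.56 with fluvastatin (-0.02 to 1.15, edgeR FDR = 0.168) and 0.77 with MBV (-0.08 to 1.62, edgeR FDR = 0.169). Neither passed the test, and the side of the threshold depended on single libraries. Without PBS replicate 3 both passed, with log2 fold changes of 1.01 (edgeR FDR = 0.00483) and 1.21 (edgeR FDR = 0.0465). Without MBV replicate 3 the MBV value was 1.10 (edgeR FDR = 0.00490). MBV replicate 3 also held the highest summed level of the 7 monocyte markers (189 CPM, against 111 to 155 in the other 8 libraries), with Ccr2, the chemokine receptor of monocytes, at 9.50 CPM against 0.273 to 2.38. Most of that sum was Fn1 and Vcan, at 64.6 and 63.1 CPM in PBS and 135 and 19.2 CPM in MBV. Under each treatment Fn1 was called higher and Vcan lower, and the other 5 markers, Ccr2 among them, were not called. None of these markers was at 0 over a whole group, and their part in the Fgf2 values was not tested. Fgf2 shares exon sequence on the opposite strand with Nudt6, and the sources used here do not state whether counting used strand. Nudt6 measured 2.35 ± 0.864 CPM in PBS, 2.63 ± 0.511 in fluvastatin and 3.21 ± 1.69 in MBV, a small share of the Fgf2 level. The long noncoding RNA genes Fgf2os, on the opposite strand, and Gm43439, on the same strand, also overlap an exon of Fgf2. Neither was among the deposited genes, so their reads could not be set apart.

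Igf1 (ENSMUSG00000020053, chr10:87694127-87772904, plus strand), the ligand of the IGF1 receptor, was the one of the 5 ligands that passed the test. It measured 66.4, 60.5 and 57.8 CPM in PBS, 52.0, 46.3 and 44.9 with fluvastatin and 50.2, 44.5 and 45.7 with MBV. Every treated library was below every PBS library, and the treated groups overlapped. Igf1 fell by 0.37 on the log2 scale with fluvastatin (SE 0.0714, edgeR FDR = 0.00628) and by 0.40 with MBV (SE 0.0688, edgeR FDR = 0.00338). It was called in all 6 fits that left out 1 library in each of these comparisons. MBV and fluvastatin differed by -0.03 (-0.19 to 0.14, edgeR FDR = 0.912). An exon of Igf1 overlaps the opposite-strand long noncoding RNA gene Igf1os, which was not among the deposited genes, so its reads could not be set apart.

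The 250 bases before the start of the canonical transcript are shown for the 4 genes that were called, Igf1, Ngfr, Igf1r and Igfbp5, so that these bases can be read beside the change in transcript. In each, 6 short motifs were searched on both strands: the cAMP response element TGACGTCA, the AP-1 site TGANTCA, a sterol response element of the LDL receptor gene, the TATA box TATAAA, the CCAAT box and the GC box GGGCGG. They were present in 1.69%, 6.18%, 0.0556%, 11.9%, 36.5% and 36.4% of 21573 promoters of that length. Capitals mark a motif match, and a match describes the letters only. The Igf1 window lay inside the span of the gene, which begins at 87694127, so it did not precede every annotated start of Igf1. The Igf1 window (chr10:87694659-87694908, GRCm39, plus strand) was 45.6% G or C and held 0 matches:
Igf1 promoter: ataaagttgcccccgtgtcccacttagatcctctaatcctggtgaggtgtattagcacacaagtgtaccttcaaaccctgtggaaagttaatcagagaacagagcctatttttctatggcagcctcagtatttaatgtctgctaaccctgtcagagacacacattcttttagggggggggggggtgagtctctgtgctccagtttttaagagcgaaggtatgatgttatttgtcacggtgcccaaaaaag

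Ntrk2 (ENSMUSG00000055254, chr13:58954383-59281784, plus strand), which encodes TrkB, was as even as its ligand. It measured 132, 119 and 135 CPM in PBS, 135, 114 and 120 in fluvastatin, and 119, 141 and 126 in MBV. All groups overlapped, and the highest library was 1.24 times the lowest. The log2 fold change was -0.07 with fluvastatin (-0.22 to 0.09, edgeR FDR = 0.544), -0.01 with MBV (-0.17 to 0.14, edgeR FDR = 0.920) and 0.06 between MBV and fluvastatin (-0.12 to 0.24, edgeR FDR = 0.784). Counts per gene do not separate the full-length TrkB kinase from its truncated forms, which are known products of this gene.

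Ngfr (ENSMUSG00000000120, chr11:95459644-95478561, minus strand) encodes p75, which is known in injured retina from Müller glia. It measured 35.9, 37.7 and 39.7 CPM in PBS, 43.1, 51.0 and 50.4 with fluvastatin, and 52.7, 62.0 and 42.5 with MBV. Every treated library was above every PBS library, by the least in MBV replicate 3. Ngfr rose by 0.35 on the log2 scale with fluvastatin (SE 0.0717, edgeR FDR = 0.00794) and by 0.46 with MBV (SE 0.116, edgeR FDR = 0.0182). The MBV call was lost without PBS replicate 1 (edgeR FDR = 0.0751), PBS replicate 2 (0.0548) or MBV replicate 1 (0.0607). The fluvastatin call held in all 6 such fits, and missed the threshold in a joint fit of all 9 libraries (edgeR FDR = 0.0509). MBV and fluvastatin differed by 0.12 (-0.15 to 0.39, edgeR FDR = 0.725). The window before its start (chr11:95478562-95478811, minus strand) was 68.8% G or C and held 3 GC boxes, whose first bases lay 77, 35 and 26 bases before the start:
Ngfr promoter: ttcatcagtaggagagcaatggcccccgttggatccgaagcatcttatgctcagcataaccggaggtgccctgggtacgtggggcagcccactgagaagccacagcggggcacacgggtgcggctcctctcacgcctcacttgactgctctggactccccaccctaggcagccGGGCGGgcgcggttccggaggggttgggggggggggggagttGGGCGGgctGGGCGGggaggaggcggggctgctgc

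Igf1r (ENSMUSG00000005533, chr7:67602575-67883416, plus strand), the IGF1 receptor, was the most abundant of the 9 transcripts and the most even within groups. It measured 452, 447 and 458 CPM in PBS, 536, 577 and 561 in fluvastatin, and 507, 521 and 488 in MBV. The 3 groups did not overlap, and MBV lay between PBS and fluvastatin. Igf1r rose by 0.30 on the log2 scale with fluvastatin (SE 0.0426, edgeR FDR = 0.00171), a call that held in all 6 fits without 1 library. With MBV it rose by 0.15 (SE 0.0416, edgeR FDR = 0.0277). This call held in 1 of the 6 such fits, that without MBV replicate 3, and the FDR was 0.118, 0.0757 and 0.0535 without PBS replicates 1, 2 and 3, and 0.0930 and 0.0871 without MBV replicates 1 and 2. MBV was lower than fluvastatin by -0.14 (-0.26 to -0.02, unadjusted p = 0.0236, edgeR FDR = 0.412), which did not pass the test. Its opposite-strand neighbour Pgpep1l, which shares exon sequence with it, measured 0.175, 0.0803 and 0.256 CPM in the 3 groups. The window before its start (chr7:67601268-67601517, plus strand) was 80.8% G or C and held 5 GC boxes, 3 of them near its upstream end:
Igf1r promoter: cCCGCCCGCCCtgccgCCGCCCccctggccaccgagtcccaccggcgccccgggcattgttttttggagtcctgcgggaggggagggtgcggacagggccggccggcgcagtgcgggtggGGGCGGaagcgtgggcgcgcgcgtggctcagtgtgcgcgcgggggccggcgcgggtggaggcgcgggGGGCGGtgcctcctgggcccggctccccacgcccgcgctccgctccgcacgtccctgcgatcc

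Igfbp5 (ENSMUSG00000026185, chr1:72897091-72914043, minus strand) encodes a secreted IGF-binding protein. It measured 99.0, 87.2 and 109 CPM in PBS, 88.5, 94.1 and 92.5 in fluvastatin, and 71.9, 79.0 and 72.0 in MBV. The MBV libraries were below all libraries of the other groups, which overlapped. Igfbp5 fell by 0.42 on the log2 scale with MBV (SE 0.0780, edgeR FDR = 0.00504), a call that held in all 6 fits without 1 library, and with fluvastatin the value was -0.10 (-0.26 to 0.06, edgeR FDR = 0.359). Between MBV and fluvastatin, read as one set of library numbers, the log2 difference was -0.30 (SE 0.0549, interval -0.43 to -0.18). It had an unadjusted p of 0.000289 and missed the threshold after adjustment (edgeR FDR = 0.134), whereas DESeq2 gave an adjusted p of 0.00559. DESeq2 was the 1 of 7 other settings that called this difference, and over these settings the FDR reached 0.335. The fits without 1 library called it in 0 of 6, with an edgeR FDR of 0.0569 to 0.531. The lens genes given above were also apart in MBV, and their part in the Igfbp5 difference was not tested. Its window (chr1:72914044-72914293, minus strand) was 62.0% G or C and, like that of Igf1, held 0 matches:
Igfbp5 promoter: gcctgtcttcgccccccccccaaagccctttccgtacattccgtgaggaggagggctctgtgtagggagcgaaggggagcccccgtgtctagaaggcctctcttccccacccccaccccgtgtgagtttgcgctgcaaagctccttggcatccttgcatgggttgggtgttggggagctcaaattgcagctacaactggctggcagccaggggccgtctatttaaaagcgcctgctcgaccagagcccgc

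**Figure D2:**
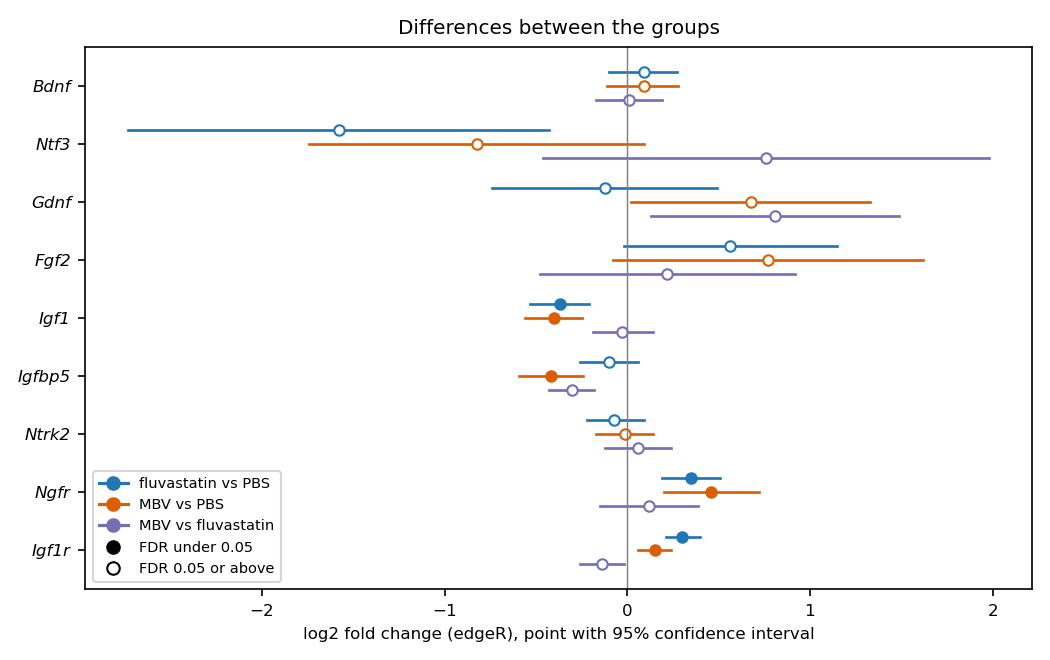
Log2 fold change of each gene (x axis, point with 95% confidence interval from edgeR) for fluvastatin against PBS, MBV against PBS and MBV against fluvastatin, with filled points for an FDR under 0.05. Igf1, Ngfr and Igf1r were called under both treatments and Igfbp5 under MBV, 0 points were filled for MBV against fluvastatin, and the intervals of Bdnf and Ntrk2 were narrow around 0 while those of Ntf3, Gdnf and Fgf2 were wide.

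Across the 9 libraries, the genes most like each member were named by Pearson's r of log2(CPM + 0.5) among 15056 genes averaging at least 10 counts. These are descriptions, since the genes were chosen as the highest of all and the libraries share their group and set. Fgf2 was most like Stat3, Bcl3 and Slc25a37, each with r = 0.99 over 9 libraries and 0.98 to 0.99 without the 2 libraries farthest from its median, and 0.99 over the 6 libraries of fluvastatin and MBV alone. Stat3, which encodes the transcription factor activated by cytokines of the IL-6 family, measured 87.4, 83.8 and 156 CPM in PBS, 136, 120 and 179 in fluvastatin and 185, 239 and 101 in MBV. PBS replicate 3 was thus high and MBV replicate 3 low in Stat3 as in Fgf2. Bcl3, a member of the IκB family, measured 1.3, 1.36 and 5.66 CPM, then 4.70, 4.07 and 6.53, then 6.50, 10.6 and 2.14 in the same libraries.

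Ngfr was most like Samd4 (r = 0.99), Adgrg6 and Ppp1r15a (r = 0.98 each), with r of 0.97 to 0.99 over the 6 treated libraries. Adgrg6, an adhesion receptor, measured 6.04, 5.80 and 8.40 CPM in PBS, 7.91, 14.7 and 16.2 in fluvastatin and 17.6, 25.2 and 8.68 in MBV. Samd4 ranged from 14.5 to 34.1 CPM and Ppp1r15a, which directs a phosphatase to eIF2α in the stress response, from 17.1 to 29.4. MBV replicate 3 was the lowest MBV library in each of these genes.

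Igf1r was most like Hdlbp (r = 0.99), Mapkapk5 (0.98) and Akap9 (0.97), and Igf1 most like Rab33b, Ythdc2 and Tubgcp5 (0.98 each). For Igfbp5 these were Lysmd2 and Vps33a (0.96 each) and Trip13 (0.95), and for Ntf3 they were Plekhg6, Snx17 and Pla2g4a (0.96 each). The highest r was lower for Gdnf (Cxxc4 0.95, Eid3 and Btg3 0.93), Bdnf (Rasgef1c 0.92, D630023F18Rik and Mtg2 0.89) and Ntrk2 (Nos1ap 0.89, Hgh1 0.88, Man1c1 0.86). Without the 2 libraries farthest from the median, r fell to 0.75 for Rasgef1c and to 0.57 for Eid3.

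Among the 9 genes themselves, Fgf2 and Ngfr ran together, with r = 0.82 (Spearman's rho 0.80) over the 9 libraries, 0.65 without the 2 farthest and 0.79 over the 6 treated libraries. Igf1 and Igf1r ran opposite, with r = -0.80 (rho -0.68) over 9 libraries. Over the 6 treated libraries r was -0.13, so this relation did not hold within them. Ngfr and Igf1r likewise had r = 0.72 over all and 0.19 within the treated libraries. Ntf3 and Igf1r had r = -0.83 over all and -0.90 within the treated libraries. These 4 pairs were chosen after their values were seen among the 36 pairs of the 9 genes, and the 3 PBS libraries are too few for a value of their own.

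**Figure D3:**
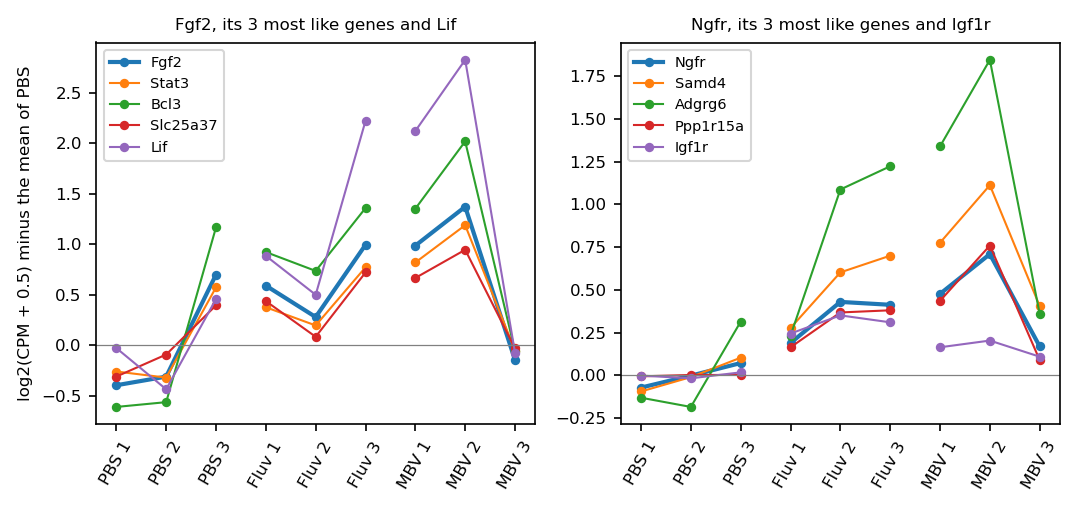
Log2(CPM + 0.5) minus the mean of the 3 PBS libraries (y axis) in each library (x axis), for Fgf2 with its 3 most like genes and Lif (left) and for Ngfr with its 3 most like genes and Igf1r (right), with lines joining the libraries of 1 group only for reading. Fgf2, Stat3, Bcl3 and Slc25a37 were high in PBS replicate 3 and low in MBV replicate 3, and Ngfr and its most like genes were at their highest in MBV replicate 2, a course that Igf1r did not follow.

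Some genes of the glial lists differed between the same libraries as Fgf2 and Ngfr. Of the 7 Müller glia markers 6 were lower with fluvastatin (Rlbp1, Glul, Slc1a3, Aqp4, Apoe and Dkk3) and 3 with MBV (Rlbp1, Aqp4 and Dkk3), none was higher and none was at 0. Their summed level was 3769 to 4401 CPM in PBS, 1971 to 3484 in fluvastatin and 1751 to 3472 in MBV. Over all genes, 10.2% were called lower with fluvastatin and 14.1% with MBV. With MBV, Slc1a3 (log2 fold change 0.02) and Kcnj10 (-0.04) lay near 0, and Glul was not called (edgeR FDR = 0.0727). Glul, the glutamine synthetase of Müller glia, measured 2592, 2489 and 1915 CPM in PBS, 1997, 1059 and 819 in fluvastatin and 1120, 598 and 1965 in MBV, lowest where Ngfr was highest (r = -0.96 with Ngfr and -0.82 with Fgf2 over 9 libraries, -0.94 and -0.77 over the 6 treated ones). Of the 6 reactive glia markers 1, Nes, was higher under each treatment and none was lower or at 0. Among the uncalled ones, Serpina3n had a log2 fold change of -0.45 with fluvastatin and -0.55 with MBV. Lcn2 was at -0.79 and 0.87, Edn2 at 0.09 and 0.02, Gfap at 0.80 and 0.33, and Vim at 0.39 and 0.54. The intermediate filament gene Nes measured 10.7, 7.50 and 13.0 CPM in PBS, 17.8, 50.0 and 68.9 in fluvastatin and 52.8, 76.2 and 17.3 in MBV, and had r = 0.95 with Ngfr and 0.79 with Fgf2. The summed level of the reactive list was 231 to 385 CPM in PBS, 281 to 511 in fluvastatin and 276 to 551 in MBV, and Glul and Nes were singled out after their values were seen. The part of these glial genes in the Ngfr and Fgf2 differences was not tested.

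Of the 9 RGC markers 3 were higher with fluvastatin (Thy1, Sncg and Nefh) and 1 with MBV (Nefh), none was lower and none was at 0. Their summed level was 550 to 681 CPM in PBS, 626 to 839 in fluvastatin and 591 to 716 in MBV. Over all genes, 9.36% were called higher with fluvastatin and 12% with MBV. RGCs are known to carry Ntrk2 and Igf1r, and the part of these markers in the receptor levels was not tested.

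The wider families were read next, each by its count of called genes beside the shares of all genes given above. In the neurotrophin system of 17 genes, 3 were higher with fluvastatin (Shc3, Ngfr and Sorcs2) and 4 with MBV (Sorcs2, Ntrk3, Ngfr and Frs2), and none was lower. Among all genes, 19.6% were called with fluvastatin and 26.1% with MBV. Sorcs2, a sortilin-family receptor that pairs with p75 for proneurotrophins, was 89.5 CPM in fluvastatin and 95.7 in MBV against 74.4 in PBS (log2 0.27, edgeR FDR = 0.0244, and 0.35, edgeR FDR = 0.0127). Shc3, a neuronal adaptor of Trk receptors, rose by 0.45 with fluvastatin (edgeR FDR = 0.00252). Ntrk3, the TrkC receptor of NT-3, rose by 0.29 with MBV (106 against 86.4 CPM, edgeR FDR = 0.0130), and the adaptor Frs2 by 0.15 (edgeR FDR = 0.0361). The median log2 fold change of the list was 0.09 with fluvastatin and 0.15 with MBV, beside -0.01 and 0.01 for all genes.

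In the GDNF family system of 11 genes, Ncam1 was higher and Gfra2 lower under each treatment, 2 genes called of 11, where 19.6% and 26.1% of all genes were. Ncam1, a cell adhesion molecule that can serve as a GDNF receptor, had a log2 fold change of 0.17 with fluvastatin (edgeR FDR = 0.0218) and 0.17 with MBV (edgeR FDR = 0.0150). Gfra2, the co-receptor of neurturin, fell by 0.27 with fluvastatin (edgeR FDR = 0.0318) and by 0.20 with MBV (edgeR FDR = 0.0459). The MBV call was lost with DESeq2 (adjusted p = 0.0742), and in edgeR with scaling by library size only (FDR = 0.0702), without a filter (FDR = 0.0623) and in the joint fit of all 9 libraries (FDR = 0.0886). The GDNF receptors themselves were present at levels that overlapped in mean ± SD, Gfra1 at 44.0 ± 4.52, 42.5 ± 2.82 and 41.0 ± 2.38 CPM and Ret at 53.2 ± 5.56, 60.5 ± 5.51 and 59.9 ± 3.81 CPM in PBS, fluvastatin and MBV, and neither was called.

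In the FGF system, 1 of 23 genes tested was called with fluvastatin and 2 of 24 with MBV, where 19.6% and 26.1% of all genes were. Fgf11 was higher in both, at 66.5 and 67.3 CPM against 50.2 in PBS (log2 0.40, edgeR FDR = 0.00107, and 0.41, edgeR FDR = 0.000722), and Fgf13 fell by 0.24 with MBV (edgeR FDR = 0.0132). Both encode intracellular FGF homologues that are not ligands of FGF receptors. The receptor Fgfr1 measured 41.5 ± 5.33 CPM in PBS, 33.1 ± 6.54 in fluvastatin and 36.4 ± 2.31 in MBV and was not called.

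The IGF system of 21 genes held 2 higher and 2 lower genes with fluvastatin and 7 higher and 3 lower with MBV. Among all genes, the shares were 9.36% higher and 10.2% lower with fluvastatin and 12% and 14.1% with MBV, so the fluvastatin count was near its share. Receptors were among the higher ones: Insr, the insulin receptor, rose by 0.21 with fluvastatin (252 against 218 CPM, edgeR FDR = 0.0155), and Igf2r, which clears IGF2, by 0.22 with MBV (83.2 against 70.9 CPM, edgeR FDR = 0.00479). Stc1, an inhibitor of the proteases that cleave IGF-binding proteins, rose by 0.42 with MBV (edgeR FDR = 0.00278). Igfbp4 fell by 0.64 with fluvastatin (20.5 against 32.0 CPM, edgeR FDR = 0.00248). The other MBV calls were Insr (log2 0.31, edgeR FDR = 0.00878), Irs1 (0.22, 0.0465), Stc2 (0.38, 0.0191) and Htra1 (0.29, 0.0264), higher, and Igfbp4 (-0.51, 0.0480), lower. Irs1 and Igfbp4 were thus near the threshold, and the MBV and PBS libraries of Igfbp4 overlapped. Fits without 1 library are not reported for these MBV calls. The ligand Igf2 measured 51.9 ± 4.95 CPM in PBS, 56.0 ± 2.21 in fluvastatin and 47.5 ± 9.03 in MBV and was not called, so Igf1 was the one IGF ligand that was called.

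**Figure D4:**
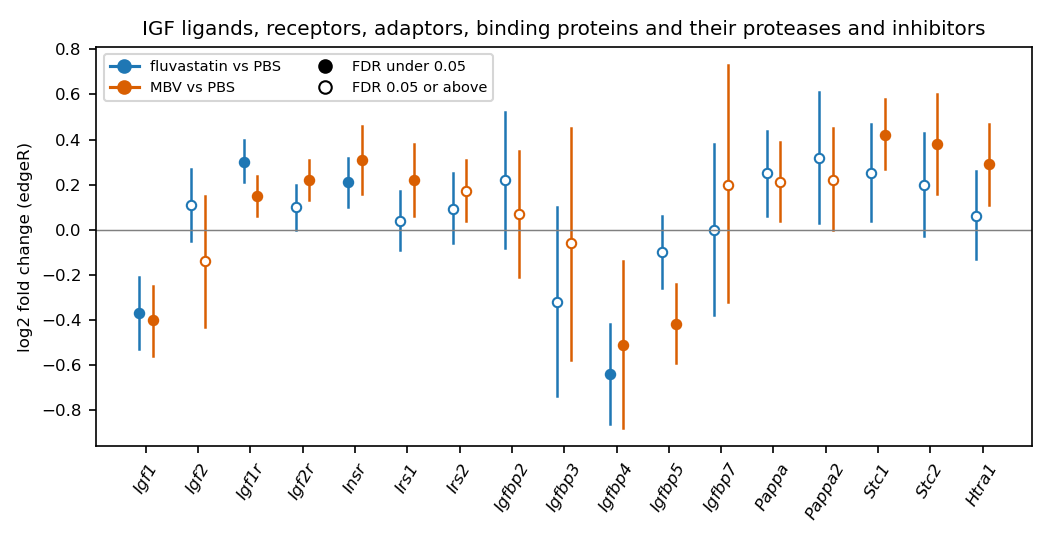
Log2 fold change from edgeR (y axis, point with 95% confidence interval) of 17 genes of the IGF system (x axis) with fluvastatin and with MBV against the same PBS libraries, filled where the FDR was under 0.05. The ligand Igf1 and the binding protein Igfbp4 lay below 0 and the receptors Igf1r and Insr above 0 under both treatments, while Igfbp5, Igf2r, Irs1, Stc1, Stc2 and Htra1 were filled under MBV and open under fluvastatin.

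Genes that ERK signalling is known to induce as feedback downstream of these receptors were read as a list of 13 genes tested. With fluvastatin 3 were higher (Spred3, Etv5 and Spred2) and 2 lower (Etv1 and Spred1). With MBV 6 were higher (Spry1, Spry4, Spred2, Spred3, Etv5 and Phlda1) and 2 lower (Dusp4 and Etv1). Of all genes, 19.6% were called with fluvastatin, 9.36% higher and 10.2% lower, and 26.1% with MBV, 12% higher and 14.1% lower. Spred3, an inhibitor of the pathway, rose by 0.41 with fluvastatin (edgeR FDR = 0.00760) and by 0.53 with MBV (edgeR FDR = 0.00165). Spred2, of the same family, rose by 0.34 (edgeR FDR = 0.0136) and 0.42 (edgeR FDR = 0.00387). Etv1 fell by 0.27 (edgeR FDR = 0.0131) and 0.44 (edgeR FDR = 0.00424), and the phosphatase gene Dusp4 fell by 0.31 with MBV (edgeR FDR = 0.0146). Genes of the list thus went both ways, more of them higher than lower. The median log2 fold change of the list was 0.20 with fluvastatin and 0.32 with MBV, beside -0.01 and 0.01 for all genes. Between MBV and fluvastatin 0 genes of any of these families were called by edgeR.

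The calls in these families rested to different degrees on single libraries. In the 6 fits that each left out 1 library, the fluvastatin calls of Shc3, Fgf11, Igfbp4, Spred3 and Etv5 held in all 6, that of Spred2 in 5, of Etv1 in 4, of Ncam1 in 3, and of Sorcs2, Insr and Gfra2 in 2. The MBV calls of Ntrk3, Fgf11, Igf2r, Stc1, Spred2, Spred3 and Etv1 held in all 6, those of Sorcs2, Ncam1, Fgf13 and Dusp4 in 5, and those of Frs2 and Gfra2 in 1.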

How the data were processed

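Whole-retina RNA was sequenced by the authors as paired reads from a total RNA kit, aligned with CLC Genomics Workbench (build GRCm39). The deposit holds 4 tables of 25655 genes, each for 1 comparison. The values used are the authors' raw read counts per gene, deposited without normalization; the strand setting of the counting is not given in the sources used here. The tables also hold the authors' fold changes, p-values and adjusted p-values, which were not used. Columns that name their library gave 9 libraries, and 6 count columns that name none, all in the table on the combined treatment, entered no step, since columns were tied to samples by name and not by their values; the planned tests of the combined treatment were therefore not run.

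Counts were fitted for 2 groups at a time with edgeR 4.0.16 (TMM, glmQLFit and glmQLFTest, R 4.3.3) over all genes with a count, with Benjamini-Hochberg adjustment and a threshold of 0.05. CPM are TMM-scaled. The code was tested on simulated counts. DESeq2 1.42.0, other scalings, filters and left-out libraries were alternatives. Positions are those of the deposited tables (GRCm39); transcripts and promoter sequence come from GENCODE M39 and its GRCm39 genome. The genes, lists and tests were chosen with earlier results of these data known. Named were the 9 genes, at most 4 called genes per list and comparison with the smallest FDR, and the 3 genes most like each of the 9; names outside this rule were added where counts were small and were chosen after their values were seen. Of the pathway lists, Spry3 and Nrg1 were not in the tables. Opposite-strand long noncoding RNA genes also overlap exons of Ntf3 (Gm67883) and Ntrk2 (4930415C11Rik), and neither was in the tables. The microglia marker list is not reported here.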

Additional observations from a re-analysis of the deposited data

How the results depend on the processing

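With the alternatives run, the number of the 9 genes called moved as follows. With a fold change of at least 2 required beside the FDR, 0 were called with fluvastatin and 0 with MBV. Leaving out 1 library gave 3 to 4 called genes with fluvastatin, 2 to 5 with MBV and 0 to 0 between MBV and fluvastatin. Between MBV and fluvastatin DESeq2 called 1 and an unadjusted p under 0.05 held for 3. In values that were not called, scaling by library size only changed the sign for Ntrk2 with MBV (0.02) and Igf1 between the treatments (0.00). Leaving out 1 library also changed signs of uncalled values, which then ranged from -0.08 to 0.04 for Ntrk2 with MBV and, between the treatments, from -0.02 to 0.06 for Bdnf, -0.12 to 0.54 for Fgf2, -0.08 to 0.04 for Igf1, -0.01 to 0.14 for Ntrk2 and -0.02 to 0.25 for Ngfr. The cause was not tested. Among the wider families, the joint fit of all 9 libraries also lost Etv5 (edgeR FDR = 0.0520) and Insr (0.0509) with fluvastatin and Mdk (0.178) with MBV, and the fit without a filter lost Manf with fluvastatin (0.0546). The calls of Igf1, Igfbp5 with MBV and Igf1r with fluvastatin held under every alternative run on the FDR. Over all genes, leaving out 1 library gave 1726 to 4402 calls with fluvastatin, 2711 to 5664 with MBV and 0 to 197 between the treatments, where DESeq2 called 122, the joint fit 38 and a minimum of 10 counts 5.

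With the replicate block, 4 genes were called with fluvastatin (Fgf2 was added, edgeR FDR = 0.00336), 3 with MBV (Igf1r was lost, edgeR FDR = 0.0756) and 0 between the treatments; Frs2, Gfra2, Lif and Ncam1 also lost their MBV calls. Samples that share a number did not deviate together (r of -0.035 to 0.13 with fluvastatin and 0.004 to 0.091 with MBV against PBS, -0.3 to 0.0041 between the treatments), and 1, 1 and 0 of 3 libraries were most like their own number, so the numbers do not pair the samples. Tests of the combined treatment, of effects balanced over the library sets and of the interaction were not run, since the columns name no library. Depth limits Ntf3 and Gdnf, with 3 to 37 counts per library.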

Other observations

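Other trophic factors were read as a list of 19 genes tested, of which 3 were higher with fluvastatin, and 4 were higher and 2 lower with MBV. Of all genes tested, 19.6% were called with fluvastatin and 26.1% with MBV. Vegfa, the vascular endothelial growth factor, rose by 0.51 on the log2 scale with fluvastatin (145 against 101 CPM, edgeR FDR = 0.00167) and by 0.59 with MBV (153 CPM, edgeR FDR = 0.000531). Pgf, placental growth factor, was low and rose by 1.46 with MBV (2.26 against 0.815 CPM, edgeR FDR = 0.0124). Ptn, the heparin-binding factor pleiotrophin, fell by 0.30 with MBV (edgeR FDR = 0.00325), and its relative Mdk by 0.50 (edgeR FDR = 0.0260). Manf, a stress-responsive trophic factor, rose by 0.31 with fluvastatin (edgeR FDR = 0.0401). In the 6 fits that each left out 1 library, the calls of Vegfa, Pgf and Ptn held in all 6, whereas those of Mdk and Manf held in 1.

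Lif, a cytokine of the IL-6 family, measured 1.43, 0.955 and 2.20 CPM in PBS, 3.13, 2.28 and 8.65 in fluvastatin and 8.04, 13.4 and 1.37 in MBV. MBV replicate 3 was within the range of PBS, and fluvastatin replicate 3 was far above the other libraries of its group. Its log2 fold change was 1.61 with fluvastatin (edgeR FDR = 0.0370), and 2.31 with MBV (edgeR FDR = 0.0300). Leaving out 1 library moved these values to between 0.83 and 1.96 with fluvastatin and between 1.64 and 2.80 with MBV. The fluvastatin call was lost without fluvastatin replicate 3 (log2 0.83, edgeR FDR = 0.128), PBS replicate 1 (FDR = 0.114) or PBS replicate 2 (FDR = 0.112), without a filter (FDR = 0.0504) and in the joint fit of all 9 libraries (FDR = 0.138). The MBV call was lost without PBS replicate 1 (FDR = 0.0995), PBS replicate 2 (FDR = 0.103), MBV replicate 1 (FDR = 0.0829) or MBV replicate 2 (FDR = 0.0916), and without MBV replicate 3 the edgeR FDR was 3.01e-05. Across the 9 libraries Lif and Fgf2 had Pearson's r = 0.93 (Spearman's rho 0.90), 0.92 without the 2 libraries farthest from the median of Fgf2 and 0.98 over the 6 libraries of fluvastatin and MBV. This pair was chosen after its values were seen and is given as a description.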
